A study of Mus musculus with 116 samples.

Results

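Gm41958, Gm35756, 4930525G20Rik and LOC118568312 are 4 mouse transcripts with placeholder names, taken from 40202 genes in the count files. They were chosen by name because earlier results of these data placed them among the strongest differences between 2 cell lines and because no function is attached to their symbols. The values that chose them are the levels in C10 against SVEC single cells, so that contrast is given below as a description and without a test. A symbol of Gm and digits marks a predicted gene model, a symbol ending in Rik a RIKEN full-length cDNA clone, and LOC followed by digits a locus for which no symbol has been assigned. In RefSeq, assembly GRCm38.p6, Gm41958 is a miscellaneous RNA on chromosome 1 with 2 transcripts, Gm35756 a long noncoding RNA on chromosome 3, and 4930525G20Rik a long noncoding RNA on chromosome 13. LOC118568312 was not matched in that table. Long noncoding RNAs are transcripts without a long open reading frame. Many are spliced and polyadenylated like messenger RNAs, and as a class they are known for being restricted to few cell types.

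The material was RNA from 2 untreated mouse lines in standard culture. C10 derives from lung and is labelled as alveolar type II epithelium, the cell type that makes surfactant. SVEC is labelled as endothelium, the inner lining of vessels. In nanoSPLITS the lysate droplet of 1 or a few cells is divided between RNA sequencing and protein measurement, so each library holds a portion of the cell's RNA. Full-length cDNA libraries were made from an input series of C10, with 8 libraries of 1 cell, 6 of 3 cells and 6 of 10 cells. Single-cell libraries numbered 48 for each line, and 46 of those from C10 held at least 1000 counts.

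Depth differed between these groups. Library totals ran from 430798 to 15385625 counts in the input series, with medians near one another, from 83188 to 5911755 (median 1881704) in the C10 single cells kept, and from 5122 to 2831907 (median 434945) in SVEC. Replicate 1 of the 1-cell input group stood apart, with 430798 counts, 538 genes detected and 64.6% of counts on mitochondrial genes. No counts fell in it on Rplp0, a ribosomal protein gene that every growing cell uses. Of the SVEC libraries, replicate 24 held 95959 counts, 27.5% of them mitochondrial. The defining markers of the labelled cell types were mostly absent from the single cells. Of 16 alveolar epithelial genes, Cdh1 and Etv5 alone had counts in at least 50% of the C10 single cells, and Sftpa1, Sftpb, Sftpc and Sftpd, which encode surfactant proteins, had none. Of 18 endothelial genes, 0 had counts in at least 50% of the SVEC libraries and 10 had none in any of them. In the deeper 10-cell pools of C10, 8 of the 16 alveolar and 6 of the 18 endothelial genes reached that share. The surfactant genes named had no counts there or in the 1-cell inputs. In the 3-cell pools Sftpb and Sftpd had counts, in fewer than 50% of libraries, and Sftpa1 and Sftpc had none. Of 10 mesenchymal genes, 5 reached that share in the single cells of both lines. The lines are therefore called by their names below. Nothing in the labels says that libraries of a group came from separate cultures, and no batch is given, so p-values measure the spread between libraries, and line or series cannot be told apart from batch.

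Promoter sequences were held for 2 of the 4 transcripts in RefSeq, build GRCm38.p6. They are shown because both transcripts were far higher in C10 than in SVEC. Each runs 5′ to 3′ from 250 bases before the transcription start to 50 bases from it onward, and capitals mark matches to the motifs named after them. That of Gm35756 is chr3:51042789-51043088, minus strand, and that of 4930525G20Rik is chr13:67830936-67831235, minus strand.
Gm35756 promoter: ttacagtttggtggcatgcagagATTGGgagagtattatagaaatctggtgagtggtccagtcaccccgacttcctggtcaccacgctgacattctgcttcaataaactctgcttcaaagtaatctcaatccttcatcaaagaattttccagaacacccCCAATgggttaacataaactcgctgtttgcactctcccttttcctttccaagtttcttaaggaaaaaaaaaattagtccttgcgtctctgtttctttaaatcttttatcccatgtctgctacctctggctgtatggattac
4930525G20Rik promoter: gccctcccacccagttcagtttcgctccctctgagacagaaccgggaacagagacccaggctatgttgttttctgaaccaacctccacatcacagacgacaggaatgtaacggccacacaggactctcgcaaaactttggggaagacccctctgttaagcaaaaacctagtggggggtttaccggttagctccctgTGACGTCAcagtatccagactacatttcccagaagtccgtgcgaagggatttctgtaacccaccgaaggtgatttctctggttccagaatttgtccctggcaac
The Gm35756 window was 41.3% G and C and the 4930525G20Rik window 52%, against a median of 52.7% over 27025 RefSeq promoters of the same length. The motifs searched, on both strands, were TATAAA (the TATA box), CCAAT (the CCAAT box), GGGCGG (the box bound by Sp1), TGACTCA (the AP-1 site), TGACGTCA (the full cAMP response element), CACGTG (an E-box) and CCGGAAG (the ETS site). They were chosen after the sequences had been seen, and none overlapped another match. The Gm35756 window held CCAAT at 2 places, -227 and -91 from the start, and 37.9% of all promoters hold it. The 4930525G20Rik window held TGACGTCA at -54, and 1.88% of all promoters hold it. The 2 windows had no motif in common.

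A sequence copy bears on what the counts of 4930525G20Rik measure. In GENCODE release M21, the processed pseudogene Gm9625 lies wholly within the 4930525G20Rik gene on the opposite strand and outside its 3 exons. Gm9625 is a copy of the messenger RNA of Rplp0, the P0 protein of the ribosomal stalk, and is not among the genes in the count files. It was 97.4% identical to the Rplp0 transcript over 955 aligned bases. The first 150 bases of the copy, the length of 1 read, are set against bases 122 to 271 of the Rplp0 transcript, which begin its coding sequence, with the 4 differences in capitals.
Gm9625: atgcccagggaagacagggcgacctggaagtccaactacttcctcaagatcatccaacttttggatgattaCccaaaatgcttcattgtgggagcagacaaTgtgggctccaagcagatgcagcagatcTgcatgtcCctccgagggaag
Rplp0: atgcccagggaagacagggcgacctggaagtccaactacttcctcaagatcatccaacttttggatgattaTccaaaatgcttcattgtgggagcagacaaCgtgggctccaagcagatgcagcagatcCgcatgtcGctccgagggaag
Of the 806 windows of 150 bases along the copy, 44 (5.46%) were identical to Rplp0, and the median window differed at 4 bases, with a range of 0 to 7. The spliced 4930525G20Rik transcript of 2987 bases itself had no match to Rplp0, and its closest match was 178 bases at 98.9% identity to Zfp85os. The annotation and strand setting behind the counts are not given in the sources used here. Reads counted for 4930525G20Rik are therefore uncertain as to exon, intron or pseudogene, and the share from Gm9625 was not tested.

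Gm41958 had counts in every C10 single cell kept and in no SVEC library. In the 46 C10 single cells it ran from 2.30 to 236 CPM (counts scaled to a library total of 1000000), with a median of 62.9. In SVEC it had 0 counts in 48 of 48 libraries. The 3-count floor over all SVEC libraries was 0.103 CPM, so the summed C10 level of 66.8 CPM was at least 645.7-fold higher. That bound is for the groups, not for single libraries. In the median SVEC library 3 counts are 6.95 CPM, and in replicates 8, 20 and 9, the shallowest, they are 161, 455 and 586 CPM, so a 0 there does not place the library below every C10 library. Drawn down to 50000 counts, 83.1% of C10 libraries would be expected to hold a count. Reads carry no molecular identifiers, so floors and counting intervals, here and below, cover counting error only and not the spread between libraries. The share of all genes with counts in every C10 single cell and in no SVEC library is not given here.

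Gm35756 was a sparse transcript with the same direction. It had counts in 42 of 46 C10 single cells (91.3%, exact 95% binomial interval 79.2% to 97.6%), from 0 to 16.0 CPM with a median of 3.21. In SVEC 1 count was found, in 1 of 48 libraries (2.08%, interval 0.0527% to 11.1%), at 0.758 CPM. The summed levels stood at a ratio of 111.6, with a counting interval from 19.9 to 4419 that reflects the single SVEC count. The groups overlapped, since 7 C10 libraries were at or under that SVEC library and 4 C10 libraries were at 0. Drawn down to 50000 counts, 16.0% of C10 libraries would be expected to hold a count, so a 0 in a shallow SVEC library says little.

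4930525G20Rik was present in both lines at levels that did not overlap. C10 single cells ran from 37.8 to 412 CPM with a median of 211, and SVEC libraries from 0 to 30.0 CPM with a median of 6.33. Of the SVEC libraries, 37 of 48 had at least 1 count, a share of 77.1% (exact 95% interval 62.7% to 88.0%). The ratio of summed levels was 31.0 (counting interval 27.1 to 35.6). The lowest C10 library was above the highest SVEC library, with the same limit on SVEC libraries at 0. The share of all genes without overlap between these groups is not given here, so the separation is a description.

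LOC118568312 was abundant in both lines and higher in C10, with 1 exception. C10 single cells ran from 1402 to 3594 CPM with a median of 2454. SVEC libraries had a median of 596 CPM and a lowest value of 161, and the highest, replicate 24, reached 11265 CPM from 1081 counts. The next highest SVEC library held 1336 CPM, below every C10 single cell, so the groups overlapped through replicate 24 alone. The ratio of summed levels was 3.72 (counting interval 3.67 to 3.78, which leaves out the spread between libraries).

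**Figure D1:**
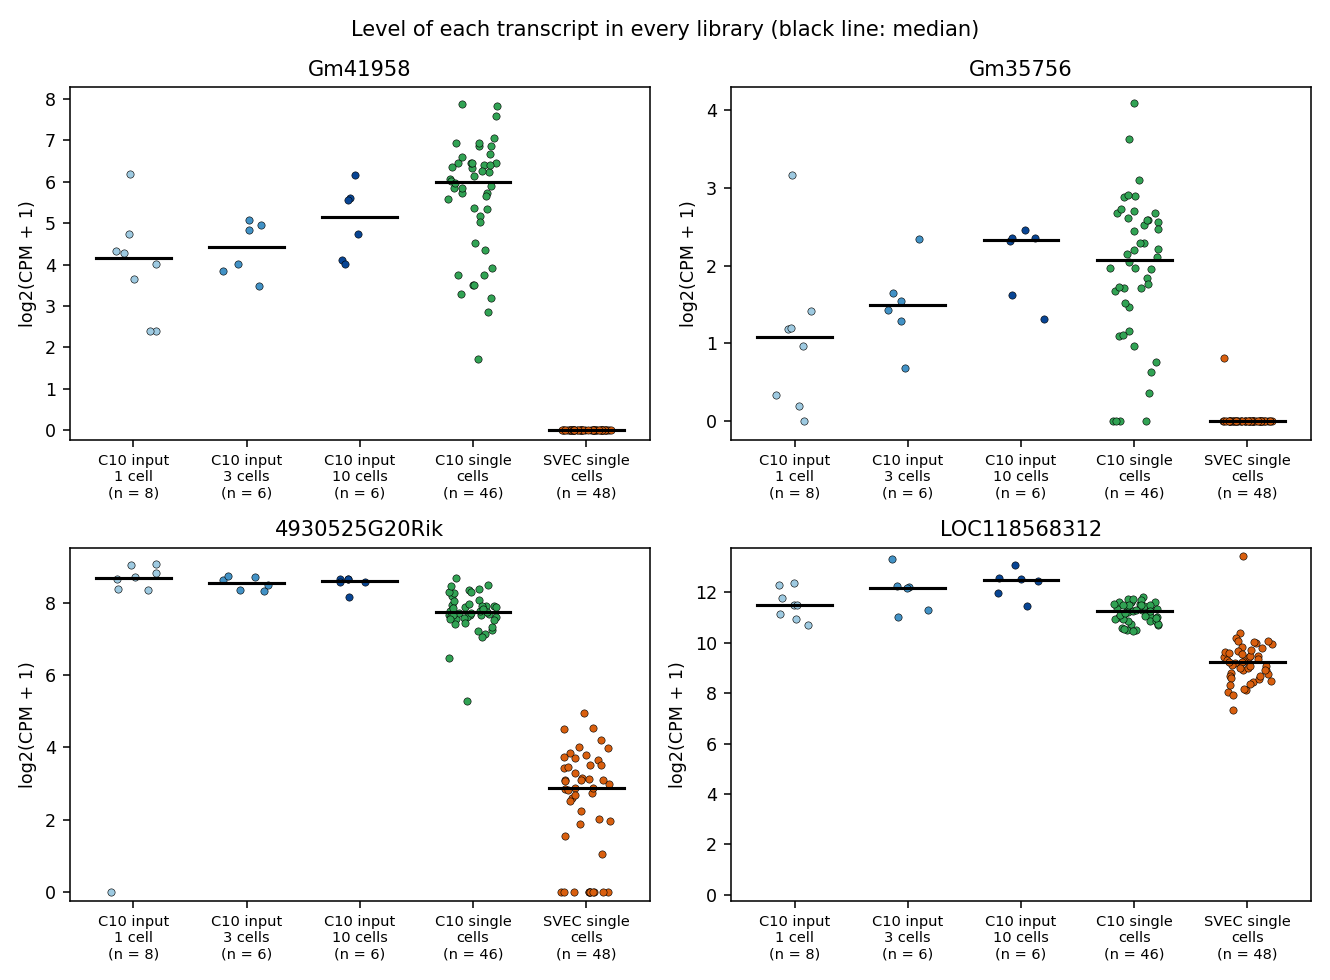
Level of the 4 transcripts in every library as log2(CPM + 1), by group, with 1 point per library and a black line at the group median. Gm41958 is at 0 in all 48 SVEC libraries, and the lone high SVEC point for LOC118568312 is replicate 24, at 11265 CPM.

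The edgeR fit over 9303 genes put these differences on 1 scale. The fitted log2 fold change of C10 over SVEC was 9.55 (SE 0.59) for Gm41958, 5.14 (SE 0.33) for 4930525G20Rik, 5.04 (SE 0.36) for Gm35756 and 2.12 (SE 0.16) for LOC118568312. The values of the 2 transcripts at or near 0 in SVEC depend on how the method treats zeros: for Gm41958 DESeq2 gave 7.57 and limma on log2(CPM + 1) 5.63, and for Gm35756 they gave 3.37 and 1.91. With library totals LOC118568312 had 1.53. By fold change the 4 ranked 9, 71, 78 and 715 from the highest of 9303 genes. LOC118568312 was thus far down by size of difference. Without SVEC replicate 24, a setting chosen after the data were seen, its log2 fold change was 2.35. Over all genes, 18.9% were called at an adjusted p under 0.05, 14.4% as higher in C10 and 4.48% as higher in SVEC. In simulated data the single-cell fits called more unchanged genes than this threshold allows, so shares called in single-cell fits, here and below, may be too high. With library totals in place of TMM factors the split of calls moved from 1337 higher and 417 lower to 932 higher and 656 lower, and the median log2 fold change of all genes from 0.35 to 0.01. Members are reported against these backgrounds only as a description, since the contrast chose them.

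The C10 libraries of the input series had no part in that choice. Gm41958 was above the SVEC level of 0 in all 20 of them. For Gm35756, 4 of the 20 were at or under the highest SVEC library, and for 4930525G20Rik 1 was, the 1-cell replicate 1. For LOC118568312, 0 of the 20 were at or under the second highest SVEC library, and all 20 were under SVEC replicate 24. These counts share the SVEC libraries with the contrast that chose the members, in which 14.4% of genes were called higher in C10. That percentage is a share of calls, and the share of all genes free of overlap is not given here.

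Within the input series the levels were read at 1, 3 and 10 cells. In pools, fewer cells with a transcript and less of it per cell cannot be told apart. Gm41958 ran from 4.26 to 72.2 CPM (median 16.8) at 1 cell, from 10.1 to 32.9 (median 21.4) at 3 cells and from 15.1 to 71.1 (median 36.2) at 10 cells. Gm35756 ran from 0 to 7.94 CPM (median 1.12), from 0.598 to 4.06 (median 1.81) and from 1.49 to 4.51 (median 4.03) at the same inputs. The medians of both were in the order of the inputs, and the ranges overlapped at every step. The highest 1-cell library was replicate 10 for both, at 72.2 and 7.94 CPM.

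The medians of 4930525G20Rik were not in the order of the inputs. At 1 cell it was at 0 in replicate 1 and from 325 to 533 CPM in the other 7, with a median of 411 over all 8. At 3 cells it ran from 318 to 428 CPM (median 374) and at 10 cells from 285 to 405 CPM (median 387). LOC118568312 ran from 1673 to 5289 CPM (median 2896) at 1 cell, from 2103 to 10197 (median 4679) at 3 cells and from 2807 to 8753 (median 5755) at 10 cells. Its medians were also in the order of the inputs, with overlapping ranges.

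None of these steps passed the test. In edgeR's quasi-likelihood test of 10 cells against 1 cell, 10.7% of 13645 genes were called and 0 of the 4 transcripts were. The log2 fold changes were 0.60 (SE 1.15, adjusted p = 0.992) for Gm41958, 0.81 (SE 1.05, adjusted p = 0.945) for Gm35756 and -0.31 (SE 0.79, adjusted p = 0.999) for 4930525G20Rik. LOC118568312 had the narrowest interval, at 0.70 (95% interval -0.11 to 1.51, adjusted p = 0.446). For 3 cells against 1 cell, where 6.35% of genes were called, 0 of the 4 were, with log2 fold changes of -0.04, 0.16, -0.17 and 0.64 in the order Gm41958, Gm35756, 4930525G20Rik and LOC118568312. These comparisons share the 1-cell libraries. For 10 against 3 cells, 0% of genes were called by edgeR, 1346 had an unadjusted p under 0.05, and DESeq2 called 258. The members had log2 fold changes of 0.64, 0.64, -0.13 and 0.06 in the same order. The intervals are wide: that of Gm41958 for 10 cells against 1 cell ran from -1.64 to 2.85, so the data do not show that levels were alike.

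The 1-cell libraries of the input series and the C10 single cells are the same line at the same nominal input. They come from 2 series of libraries that differ in depth, and their comparison shares the C10 single cells with the contrast that chose the members. Of the 4 transcripts, 2 were lower in the single cells, where edgeR called 15.1% of 12303 genes, 11.4% as lower and 3.61% as higher. 4930525G20Rik was lower by a log2 fold change of -1.41 (SE 0.35, adjusted p = 0.00229), and 42 of 46 single cells were below the lowest of the other 7 input libraries, 325 CPM. LOC118568312 was lower by -0.93 (SE 0.16, adjusted p = 7.43e-06), although 41 of 46 single cells lay inside the input range from 1673 to 5289 CPM. Gm41958 had a log2 fold change of 1.04 (SE 0.68, adjusted p = 0.343) and Gm35756 one of 0.52 (SE 0.74, adjusted p = 0.730). The excess of calls in simulated single-cell data, given above, is a limit on these p-values too. The median log2 fold change of all genes was -0.36 with TMM factors and 0.19 with library totals. Both calls were lost with library totals, where 4930525G20Rik had -0.74 (adjusted p = 0.191) and LOC118568312 -0.39 (adjusted p = 0.149). Without 1-cell replicate 1 both passed, at -1.16 (adjusted p = 0.000738) and -0.47 (adjusted p = 0.0274), and the median of all genes was -0.16. Drawn down to 100000 counts neither passed, and the direction over all genes turned. There 562 of 7963 genes were called higher in the single cells and 312 lower, with a median of 0.29.

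**Figure D2:**
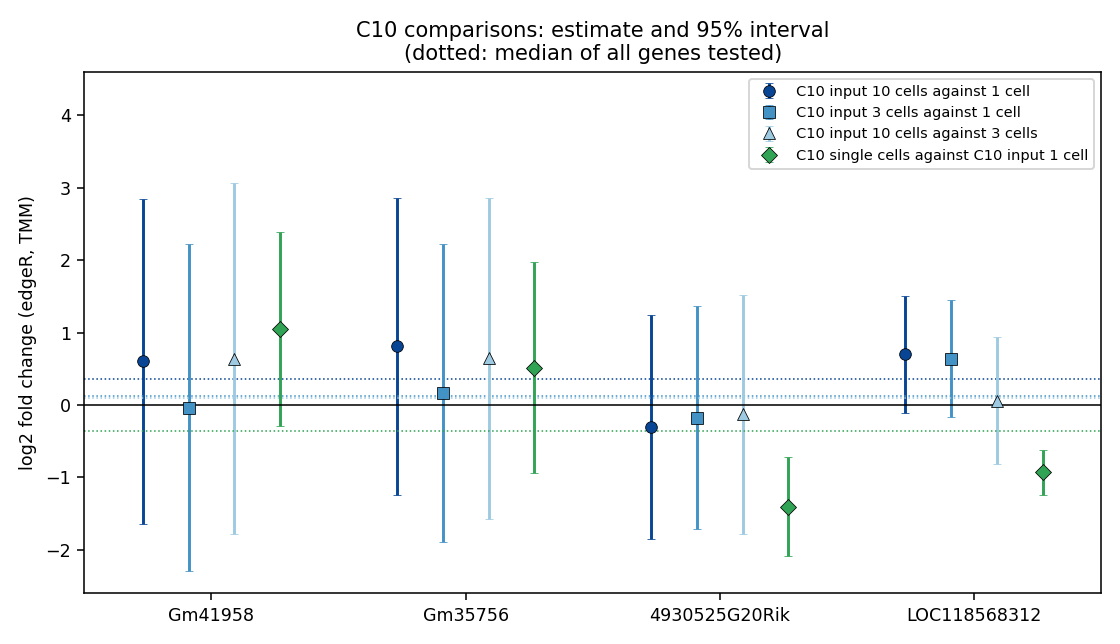
Log2 fold change of each transcript in the 4 comparisons among C10 libraries, with 95% intervals from edgeR and dotted lines at the median of all genes tested. The intervals include 0 except for 4930525G20Rik and LOC118568312 in C10 single cells against 1-cell inputs, at -1.41 and -0.93.

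Across the 46 C10 single cells, Gm41958 and Gm35756 went together. Their Spearman rho of CPM was 0.626. It was 0.359 in the 45 libraries that could be drawn down to 100000 counts, where 29.3% would be expected to hold a Gm35756 count. In the 20 input libraries, which had no part in the choice, it was 0.889, and 0.881 without 1-cell replicate 1. The 2 genes are on different chromosomes. The other 5 pairs of members had rho from -0.0398 to 0.142 in single cells. These points share libraries and depth and are given as a description. Gm41958 had rho 0.00685 with the library total and 0.391 with an S phase score, and Gm35756 0.236 and 0.296, whose part in the relation was not tested.

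The genes most like Gm41958 among 5770 compared in C10 single cells were Spata7, a protein of the photoreceptor connecting cilium, at rho 0.883, the predicted gene Gm9567 at 0.871 and the ubiquitin ligase gene Rnf157 at 0.674. In the 20 input libraries the same pairs had 0.859, 0.632 and 0.492. The Gm41958 to Spata7 CPM ratio had medians of 1.91, 1.51 and 2.00 at 1, 3 and 10 cells and 1.82 in C10 single cells. At 3 cells the ratio varied as much as Gm41958 itself, with coefficients of variation of 47.9% and 45.5%. Spata7 had counts in 46 of 46 C10 single cells (median 32.3 CPM) and in 8 of 48 SVEC libraries (median 0), by medians the same direction as Gm41958. In SVEC replicates 25, 40, 4 and 16 Spata7 reached 323, 192, 178 and 173 CPM. These values are above the highest C10 single cell, at 144 CPM, and Gm41958 was at 0 in those libraries. The fitted line difference of Spata7 was 1.03 (SE 0.67), which did not pass edgeR's test (adjusted p = 0.318). For Gm35756 the nearest were the adhesion receptor gene Adgrg2 at rho 0.658, Gm41958 at 0.626 and Gm9567 at 0.601, and in the input libraries 0.581, 0.889 and 0.559.

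**Figure D3:**
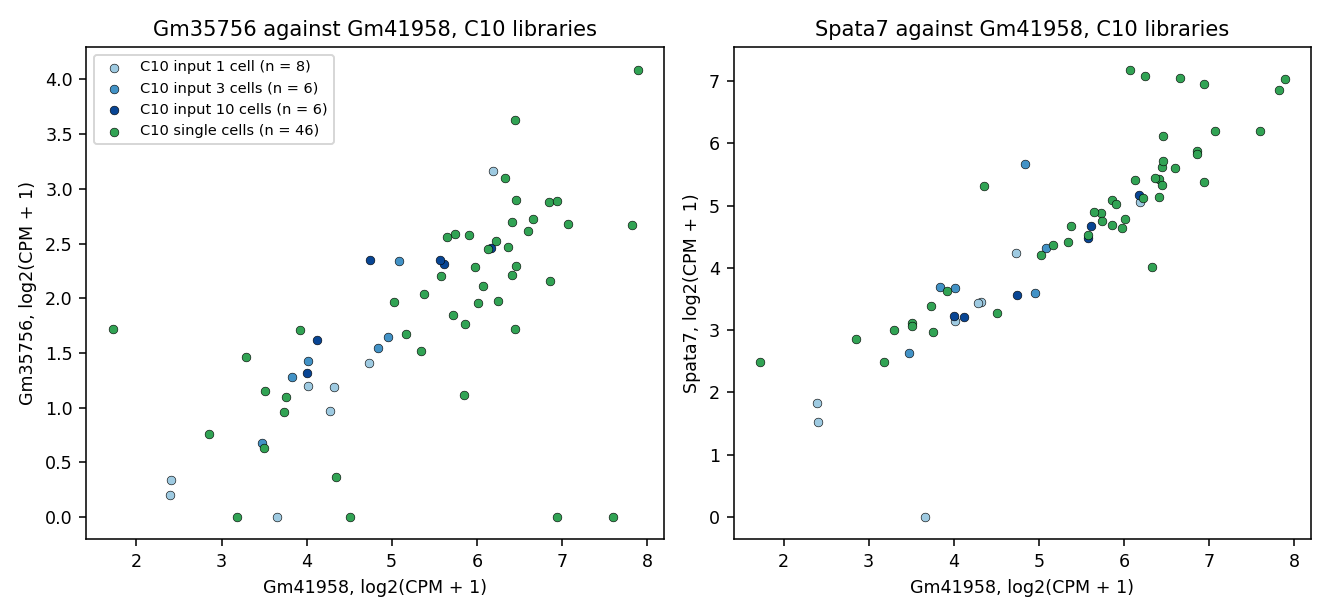
Gm35756 (left) and Spata7 (right) against Gm41958 in the 66 C10 libraries kept, all as log2(CPM + 1), with 1 point per library coloured by group. Both are higher where Gm41958 is higher, at rho 0.626 and 0.883 over the 46 single cells.

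4930525G20Rik followed Rplp0, the gene whose copy lies within it. In C10 single cells rho was 0.848, ahead of Rps6, a protein of the small ribosomal subunit, at 0.626 and the uncharacterised 2600014E21Rik at 0.587. In the 20 input libraries rho with Rplp0 was 0.901, while Rps6 had -0.144 and 2600014E21Rik -0.179. At 1 cell, the CPM ratio of 4930525G20Rik to Rplp0 lay between 0.187 and 0.208 in the 7 libraries with Rplp0 counts, a coefficient of variation of 3.81%, against 19.2% for 4930525G20Rik itself in those libraries. At 3 and 10 cells the ratio varied more than the gene did, with 14.9% against 12.6% and 15.5% against 12.0%. Its median was 0.194 at 1 cell, 0.189 at 3 cells and 0.191 at 10 cells. Replicate 1 of the 3-cell and of the 10-cell group had the lowest ratios, 0.126 and 0.124, and mitochondrial shares of 16.7% and 17.8%, the highest of their groups.

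In C10 single cells the ratio ran from 0.067 to 0.143 with a median of 0.107, wholly below the 1-cell input range. In SVEC it ran from 0 to 0.0176 with a median of 0.00458. Rplp0 itself was at a median of 2030 CPM in C10 single cells and 1318 CPM in SVEC, with a log2 fold change of 0.84 (SE 0.15, adjusted p = 3.58e-06, edgeR), far smaller than that of 4930525G20Rik. Between C10 single cells and 1-cell inputs Rplp0 had -0.53 (SE 0.31, adjusted p = 0.281). Apart from those replicates 1, the ratio thus took 3 levels, in the input series, the C10 single cells and SVEC, while the Rplp0 ranges overlapped.

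**Figure D4:**
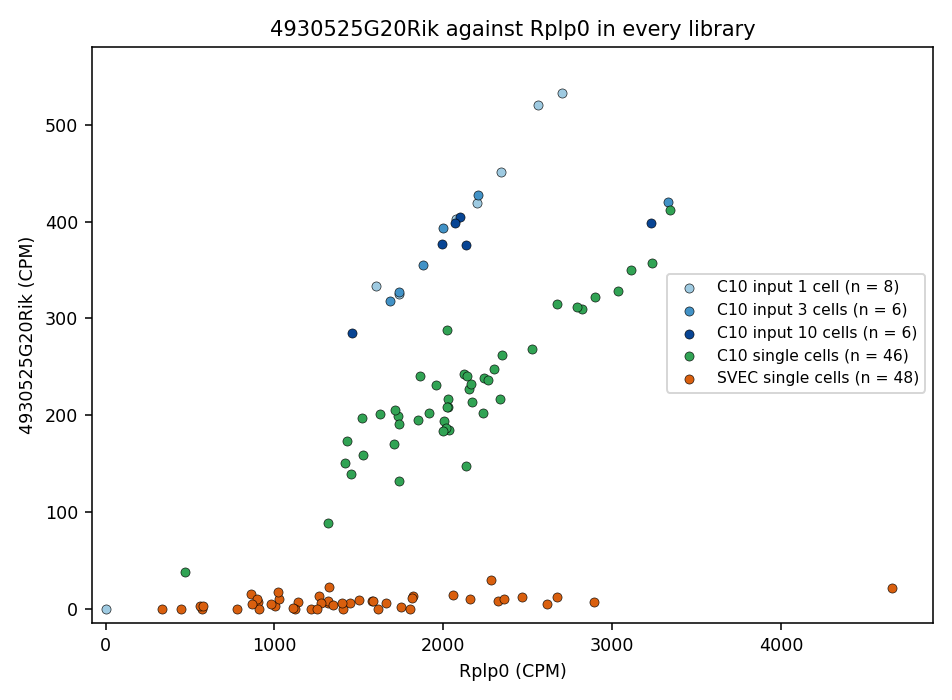
4930525G20Rik against Rplp0, both in CPM, with 1 point per library coloured by group. Points of the input series, C10 single cells and SVEC lie along separate slopes, with median ratios near 0.19, at 0.107 and at 0.00458, except for replicate 1 of the 3-cell and 10-cell groups, at 0.126 and 0.124 among the C10 single cells.

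For LOC118568312, the nearest genes in C10 single cells were mt-Rnr1, the small ribosomal RNA of the mitochondrion, at rho 0.687, Chchd2, a nuclear gene for a mitochondrial protein, at 0.670 and the zinc-finger gene Zbed5 at 0.655. In the input libraries mt-Rnr1 had 0.671, while Chchd2 had 0.0496 and Zbed5 0.189. Its rho with the mitochondrial share of counts was 0.530, with genes detected -0.381 and with the library total -0.327. The same RNA differed between the lines: mt-Rnr1 was higher in C10 by a log2 fold change of 2.63 (SE 0.18, adjusted p = 4.00e-23, edgeR), beside 2.12 for LOC118568312. The CPM ratio of LOC118568312 to mt-Rnr1 had a median of 0.619 in C10 single cells (quartiles 0.545 and 0.694) and 0.779 in SVEC (quartiles 0.471 and 1.09), so its median relative to that RNA was not lower in SVEC. The median mitochondrial share was 7.14% in C10 single cells and 4.30% in SVEC, and its part in the line difference of LOC118568312 was not tested. Single libraries went both ways. In SVEC replicate 24, which had the highest LOC118568312, mt-Rnr1 was at 6753 CPM (median 845), while replicates 48 and 8 had 4165 and 3598 CPM of mt-Rnr1 with 506 and 161 CPM of LOC118568312. At 3 cells, replicate 9, highest in LOC118568312, had 10091 CPM of mt-Rnr1, while replicate 1 had the most mt-Rnr1, 13832 CPM, with 4883 CPM of LOC118568312. In 1-cell replicate 1 mt-Rnr1 reached 76258 CPM with LOC118568312 at 5023 CPM.

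Over both lines together, Crip1 and Efemp1 were among the 3 genes most like each member. Crip1, a small LIM-domain protein, and Efemp1, an extracellular matrix glycoprotein, each had counts in 46 C10 and 0 SVEC libraries. Over the 94 libraries, Pearson r of log2(CPM + 1) with Efemp1 and Crip1 was 0.933 and 0.933 for Gm41958, 0.838 and 0.793 for Gm35756, 0.905 and 0.909 for 4930525G20Rik and 0.797 and 0.824 for LOC118568312. The remaining place among the 3 was taken by another member each time, 4930525G20Rik for Gm41958 at 0.878 and Gm41958 for the rest at 0.877, 0.878 and 0.785. These values mainly restate the line difference, which places the points in 2 clusters.

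Of the genes that overlap a member or lie nearest to it, 2 had enough counts to be tested between the lines and 0 were called. Gm41958 overlaps the long noncoding Gm34056 by 543 bases in RefSeq, which had 26 counts in 2 C10 libraries and 0 in SVEC. Zfp281, a zinc-finger transcription factor gene on 1 side, had a line difference of -0.60 (SE 0.86, adjusted p = 0.714, edgeR). Gm19705, the noncoding gene 0.671 kb away on the other side, had 0.73 (SE 0.70, adjusted p = 0.543) and counts in 36 C10 and 18 SVEC libraries, with rho -0.198 to Gm41958. In GENCODE M21 the span of Gm19705 covers 11957 bases of the Gm41958 span, so reads could be assigned to either by annotation. Both neighbours of Gm35756, the noncoding Gm37548 and Gm29230, had 0 counts in all single cells. Of the genes that overlap 4930525G20Rik, the zinc-finger gene Zfp273 had 0 counts and Gm10037 had 72 counts in 1 C10 library. Its nearest neighbours were Zfp493, with 67 counts in 1 SVEC library, and BC048507, with 1 count in C10.

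The members belong to a large class of names. Of 17432 uncharacterised symbols in the files, 663 could be tested between the lines. Of these 35% were called higher in C10 and 5.58% higher in SVEC, with a median log2 fold change of 0.88, against 12.8% and 4.4% of the 8640 other genes, with a median of 0.32. C10 libraries were the deeper ones. In the comparison of C10 single cells with the deeper 1-cell inputs, 25% of 1675 uncharacterised names were called lower in single cells and 0.896% higher, with a median of -0.92, against 9.31% and 4.04% of the other genes. In both comparisons the class was higher in the deeper group. In the input series, where median totals were near one another, its median for 10 against 3 cells was 0.52, against 0.04 for other genes. For 10 cells against 1 cell the medians were 0.59 and 0.33, and for 3 cells against 1 cell 0 and 0.15. In the comparisons with single cells a gene was tested if it had counts in 25% of the libraries of either group. Sparse genes could thus enter through the deeper group alone, and the filter itself could tilt the class toward that group. The parts of depth and of this filter were not tested. Among the 232 uncharacterised names called higher in C10, the members ranked 1 (Gm41958), 14 (4930525G20Rik), 16 (Gm35756) and 143 (LOC118568312) by fold change. These ranks are a description, since this contrast chose the members.

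Of the uncharacterised names called between the lines, 31 higher in C10 and 2 higher in SVEC had counts in 90% or more of that line's libraries. SVEC libraries were shallower, with a median of 4404 genes detected against 6103 in C10 single cells, so the 90% bar was not alike for the lines. The share of other genes past that bar in each direction is not given here, so the 31 and 2 do not compare the lines. The 31 include the members, which this contrast chose, so their place there is no result about them. Beyond the members, the largest differences were those of LOC118568594 at 3.69 (SE 0.51, adjusted p = 6.45e-09, edgeR), Gm30871 at 2.92 (SE 0.53, adjusted p = 6.01e-06) and Gm21119 at 2.87 (SE 0.70, adjusted p = 0.00104). In the other direction stood Gm46174 at -2.25 (SE 0.22, adjusted p = 2.67e-15) and Gm41042 at -0.92 (SE 0.27, adjusted p = 0.0072). Gm46174 had a mean of 672 CPM in SVEC and 107 CPM in C10.

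**Figure D5:**
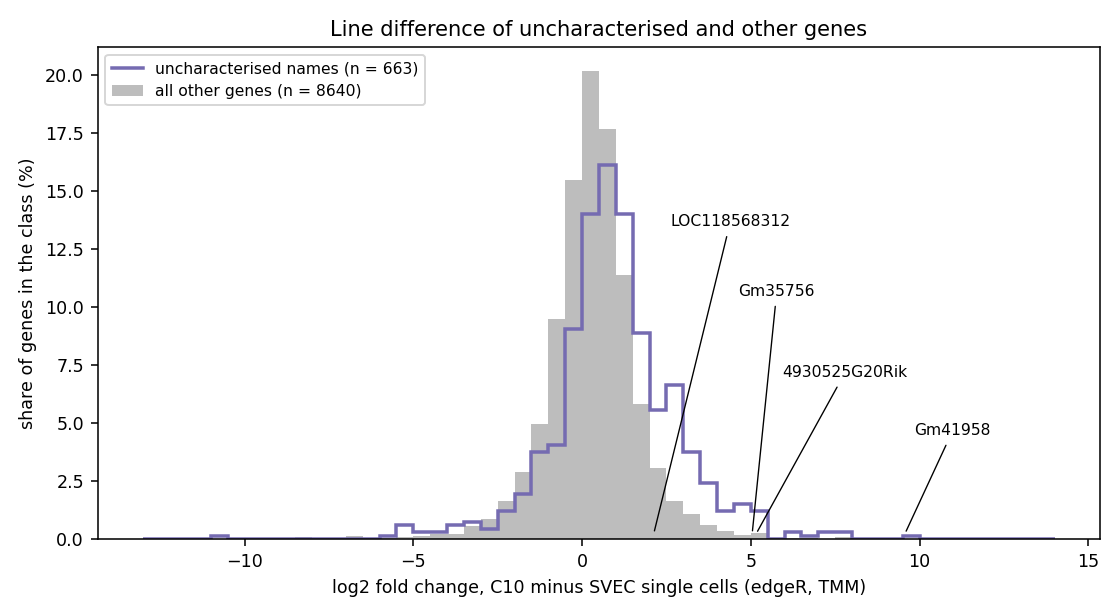
Share of genes in steps of 0.5 in the fitted log2 fold change of C10 over SVEC single cells, for 663 uncharacterised names (line) and 8640 other genes (bars), with the members marked. The class lies to the right of the other genes, with medians of 0.88 and 0.32, and Gm41958 at 9.55 is farthest out of the members.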

How the data were processed

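The members and all lists were chosen with earlier results of these data known. The authors deposited whole-number read counts per gene, 1 file per library. The submitters' processing notes name FastQC, STAR and HTSeq, and versions, genome build, annotation and strand setting are not given in the sources used here. The labels' protocols describe SMART-Seq v4 Plus cDNA sequenced as single reads of 150 bases. The 5 closing counters for unassigned reads were left out of totals. Libraries under 1000 counts were left out, which removed 2 C10 single cells. CPM is the count per 1000000 counts over genes. Depth per library is in the opening of the results; 3 counts in a median SVEC library are 6.95 CPM, and 1.60 CPM in a median C10 single cell. No 2 libraries of a group agreed within sampling noise (lowest chi-square per degree of freedom 3.23).

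Counts were tested in R 4.3.3 with edgeR 4.0.16 (quasi-likelihood F test, TMM factors, Benjamini-Hochberg adjusted p under 0.05 over all genes tested), on genes with counts in 25% or more of 1 group's libraries for single cells and 50% for the input series, which was 1 model of 3 groups. Alternatives were library totals alone, DESeq2 1.42.0, limma 3.58.1 on log2(CPM + 1), no filter, a replicate block, a depth minimum, drawing down to 100000 counts, and leaving out libraries that stood apart. The procedure was tested on simulated data, where the single-cell fits called more unchanged genes than the threshold allows. SEs were taken from the F statistic. Sequences were compared with BLAST+ 2.17.0. RefSeq and GENCODE positions are those of GRCm38, not of the deposited counts.

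Genes named are the 4 members. For each, they include the 3 with the highest Pearson r over both lines and the 3 with the highest Spearman rho in C10 single cells among genes with counts in at least 50% of C10 libraries. They also include genes that overlap a member or lie nearest on each side, and up to 3 other uncharacterised names in each direction with the largest called change among those detected in at least 90% of the higher line. Rplp0 and Gm9625 were followed further after their values were seen. Immune genes, 7 in the list, had counts in at least 50% of libraries for 0 genes in both lines of single cells.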

Additional observations from a re-analysis of the deposited data

Results flagged for a closer look

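Within the input series, 12 groups of values were checked for a library far from the rest of its group. If about 1 in 20 independent groups stands out by chance, 0.6 of the 12 would, and 5 did. The transcripts were read in the same libraries, so the 12 groups are not independent, and 5 against 0.6 does not measure an excess. At 1 cell, replicate 10 held 72.17 CPM of Gm41958, where the other 7 libraries lay between 4.26 and 25.5. The same library held 7.945 CPM of Gm35756, where the others lay between 0 and 1.66. It had the most genes detected of the 1-cell group, 11764. At 1 cell, 4930525G20Rik was at 0 in replicate 1, the library with 430798 counts, while the others lay between 325 and 533 CPM. At 10 cells, 4930525G20Rik was lowest in replicate 9 at 285.1 CPM, where the others lay between 375 and 405, and Rplp0 was also lowest there at 1461 CPM. At 3 cells, replicate 9 held 10197 CPM of LOC118568312, where the others lay between 2103 and 4883.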

How the results depend on the processing

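In C10 against SVEC the members were higher in C10 under each alternative, but the size moved: Gm41958 from 9.55 to 7.57 with DESeq2 and 5.63 with limma, Gm35756 from 5.04 to 3.37 and 1.91, and LOC118568312 from 2.12 to 1.53 with library totals. The count of called genes moved from 1754 to 3223 with limma, 5437 without a filter on low counts and 3095 with a replicate block. For 10 cells against 1 cell it moved from 1456 to 48 without the filter and 0 with the block, and for 3 cells against 1 cell from 866 to 121 with limma, 65 without the filter and 0 with the block. Leaving out 1-cell replicate 1 or 10 gave 336 to 2769 and 32 to 2035 calls in those comparisons, the lower value each time without replicate 1. For 10 against 3 cells, 0 became 258 with DESeq2 and 35 with limma. For C10 single cells against 1-cell inputs, 1852 became 1156 with limma, 4365 without the filter, 0 with the block (1477 at an unadjusted p under 0.05) and 874 drawn down to 100000 counts. Drawn down, 562 genes were higher in the single cells and 312 lower, where the main fit had 444 higher and 1408 lower. The labels tie replicate numbers to no shared source, and over genes the numbers did not pair the libraries: deviations of same-numbered libraries had a mean r of 0.00336 over 46 single-cell pairs and from -0.00738 to 0.0218 elsewhere. Replicate 1 nevertheless had the lowest total, the fewest genes and the highest mitochondrial share in each of the 3 input groups.

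No member passed the test in the input series under these alternatives, and several log2 fold changes lay on either side of 0. For 10 cells against 1 cell, DESeq2 gave -0.34 for Gm41958, -0.068 for Gm35756 and -0.34 for LOC118568312, and limma 0.91 for 4930525G20Rik. For 3 cells against 1 cell, Gm41958 had 0.014 with library totals, 0.37 with limma, 0.14 without the filter, 0.14 with the block and -0.19 to 0.78 without 1-cell replicate 1 or 10. Gm35756 had -0.32 with DESeq2 and -0.0084 to 1.30 without those libraries. 4930525G20Rik had 0.00082 with library totals, 0.91 with limma, 0.073 with the block and -0.37 to 0.10 without those libraries. LOC118568312 had -0.0039 with DESeq2, and -0.34 for 10 against 3 cells. For C10 single cells against 1-cell inputs, Gm35756 had -0.22 drawn down and 4930525G20Rik 0.10 with limma, where replicate 1 at 0 enters as a log2 value. The 2 calls there, 4930525G20Rik and LOC118568312, were also lost with the block (-1.13 and -0.35) and drawn down to 100000 counts (-0.45 and -0.16). That of LOC118568312 was lost with limma too (-0.33, adjusted p = 0.284). Both held with DESeq2, at -2.05 and -1.56. Gm41958 passed with limma alone, at 1.63 (adjusted p = 0.0449). The rho of Gm41958 with 4930525G20Rik was -0.0439 drawn down. The cause of these differences was not tested. The fits without 1-cell replicate 10 or without SVEC replicate 24, and the drawn-down comparison, were chosen after seeing the data. Depth limits Gm35756 most, since a median SVEC library shows 3 counts only at 6.95 CPM, above its C10 median.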
